A study of Mus musculus with 3 samples.

Results

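Interleukin 10 (Il10) and 3 transcription factors that control it in T cells, Bhlhe40, Prdm1 and Maf, were followed through 2 single-cell RNA libraries of alloreactive CD4 T cells. These 4 genes were chosen by name, from 28692 genes in the wild-type files, because of their levels and co-detection in these same libraries, so their differences between tissues are given as a description and support nothing further. The cells were wild-type TEa cells, CD4 T cells that carry a transgenic T cell receptor for the I-E alpha alloantigen of BALB/c mice, with a congenic mark. They had been transferred as naive cells into C57BL/6 mice that then received a BALB/c heart, and were sorted 7 days after transplantation from the heart allograft in the first library and from the spleen in the second. The remaining library of the series, of Ldha-/- TEa cells from the spleen of such mice, was not analysed here by gene, since its rows are not paired with gene names in the files used.

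IL-10 is a cytokine that restrains inflammation, chiefly by acting on antigen-presenting cells. Effector CD4 T cells, among them Th1 cells and the Foxp3-negative type 1 regulatory cells, can make it late in a response. MAF is a basic leucine zipper factor that binds the Il10 locus and drives its transcription in many T helper types. BLIMP1, the product of Prdm1, is a zinc finger factor of terminal differentiation that also supports Il10, while BHLHE40 is a basic helix-loop-helix factor known to repress Il10 in Th1 cells and to favour inflammatory cytokines.

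On GRCm38, Il10 lies on chromosome 1 (131019845 to 131024974, plus strand), Bhlhe40 on chromosome 6 (108660629 to 108666925, plus strand), Prdm1 on chromosome 10 (44437177 to 44528501, minus strand) and Maf on chromosome 8 (115682942 to 115707794, minus strand). The window around a RefSeq start of Prdm1 (GRCm38.p6, chr10:44458699-44458998, minus strand, 250 bases before to 50 after the start) is shown because Prdm1 is a regulator whose transcripts were several times higher in the graft. The RefSeq start used lies inside the gene span above, whose upstream end on the minus strand is 44528501, and no other start was read. TGANTCA was sought because AP-1 factors act in activated T cells. With any base at N, it is a looser form of the sequence they share. The capitals mark the single match to TGANTCA, at bases -48 to -42 from the start.

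Prdm1: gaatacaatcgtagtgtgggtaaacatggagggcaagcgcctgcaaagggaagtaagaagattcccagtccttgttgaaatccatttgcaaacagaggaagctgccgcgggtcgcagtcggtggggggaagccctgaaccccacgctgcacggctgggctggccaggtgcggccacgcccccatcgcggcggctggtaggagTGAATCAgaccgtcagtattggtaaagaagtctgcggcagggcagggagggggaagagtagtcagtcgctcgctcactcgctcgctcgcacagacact

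The match reads TGAATCA, and 7.81% of 32817 RefSeq start windows of this length hold a TGANTCA match on either strand. No match was found in this window to CACGTG, an E box of the type that BHLHE40 binds, or to TGCTGA, the core of MAF sites. Both, also read on both strands, were present in 7.15% and 19.5% of the windows. A match is only a run of letters, and no binding was measured here.

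The heart library gave 3986 T cells past the filters, with 42254366 UMIs (unique molecular identifiers, each marking a captured transcript) and a median of 8236 a cell. The spleen library gave 6569 T cells, with 56239410 UMIs and a median of 7988. Each tissue had 1 library, so no difference has a replicate check, no test between tissues was possible, and the tissue cannot be told apart from the library. Intervals are exact 95% intervals for counting error only. Levels are CPM, the gene's UMIs summed over cells and scaled to a common total per library. For a gene with no UMI, the upper limit of that interval is 0.0873 CPM in heart and 0.0656 CPM in spleen. Shares of cells were read after each cell had been thinned to 4000 UMIs, which left out 87 heart and 74 spleen cells that were shallower. The T cell markers Cd3d, Cd3e, Cd3g, Trac and Cd4 summed to 6090 CPM in heart and 5732 CPM in spleen, and 6 cell barcodes were shared between the libraries.

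Il10 and Bhlhe40 were found mainly in the graft and were rare in the spleen cells, while Maf was present in both tissues. Prdm1 was low in both and higher in the graft library as a whole, though not in every cluster. Of the 4 genes, 3 were at least 2-fold higher in heart on the log2 (CPM + 1) scale, as were 9.13% of the 6954 genes that reached 10 CPM in 1 of the libraries, while 8.47% were at least 2-fold lower. Since the genes were picked with these levels known, nothing is read from that count.

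The Il10 level was 26.8 CPM in heart (25.3 to 28.4) against 0.27 CPM in spleen (0.15 to 0.44), a ratio of 100.4 with a counting interval of 60.6 to 180.1. The spleen value rested on 15 UMIs in 7 cells, of which 1 cell held 8. At equal depth 270 of 3899 heart cells (6.92%, 6.15 to 7.77%) and 5 of 6495 spleen cells (0.077%, 0.025 to 0.18%) had an Il10 UMI. Without thinning, the shares were 11.7% of heart and 0.11% of spleen cells.

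Bhlhe40, the repressor, was at 150.1 CPM in heart (146.4 to 153.8) against 3.01 CPM in spleen (2.57 to 3.49), 49.9 times higher (42.9 to 58.5). It was found in 37.0% of thinned heart cells (35.5 to 38.5%) and in 0.89% of spleen cells (0.68 to 1.15%), or in 56.2% and 1.86% without thinning. On the log2 (CPM + 1) scale it ranked 7 from the top of the 6954 genes, and Il10 ranked 22.

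Prdm1 was low in both libraries, at 15.9 CPM in heart (14.7 to 17.1) against 1.90 CPM in spleen (1.56 to 2.30), a ratio of 8.35 (6.80 to 10.3). Thinned heart cells held it in 6.08% (5.35 to 6.87%) and spleen cells in 0.66% (0.48 to 0.89%), against 13.4% and 1.46% unthinned. It ranked 142 by the same measure.

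Maf was the gene that the 2 tissues shared, at 276.7 CPM in heart (271.7 to 281.8) against 148.3 CPM in spleen (145.2 to 151.6), 1.87 times higher in heart (1.81 to 1.92). Its log2 (CPM + 1) ratio of 0.90 lay just under the 2-fold line, and it was 1.20 with all cells thinned to 1000 UMIs and 0.73 when Malat1, mitochondrial and ribosomal protein transcripts were left out of the totals. The median gene was at -0.11 with all counts and at -0.32 with the smaller totals, so Maf stood 1.01 and 1.04 above the median gene. Thinned, Maf was found in 56.4% of heart cells (54.8 to 57.9%) and 33.9% of spleen cells (32.7 to 35.0%), and unthinned in 74.3% and 49.3%.

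**Figure D1:**
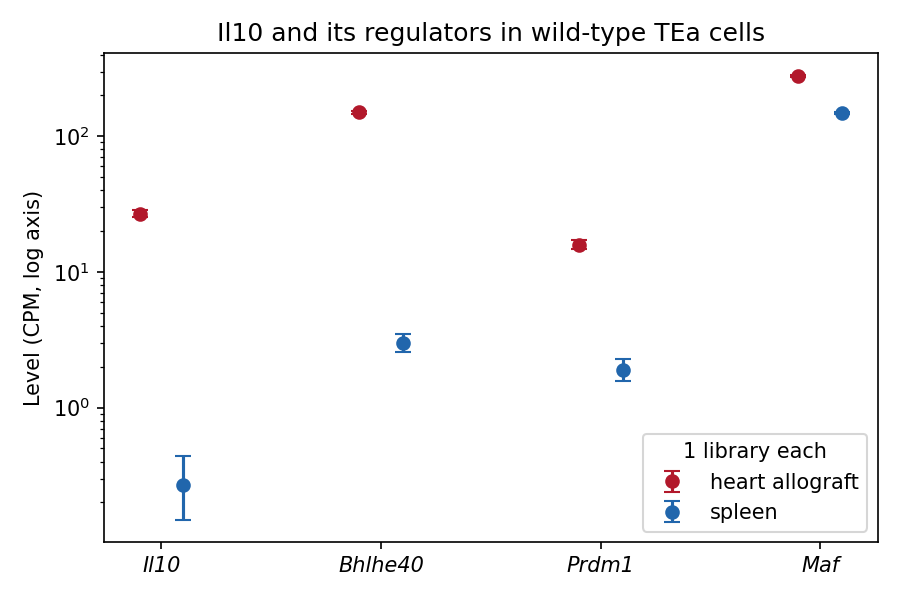
Level of each gene in CPM (log axis) in the heart allograft and spleen libraries, 1 library each, with exact 95% Poisson intervals for counting error. Il10, Bhlhe40 and Prdm1 are far apart between the tissues, while Maf is at 276.7 and 148.3 CPM.

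The genes were spread differently over the graft cells. In heart, 199 cells (the top 5% by Il10 count) held 74.2% of all Il10 UMIs, and 142 of the 467 cells with Il10 had 3 or more, up to 19 in a cell. The top 5% for Bhlhe40 held 27.7% of its UMIs and those for Maf 24.7%. Prdm1 was mostly a single molecule, with 439 of its 536 cells at 1 UMI and a highest count of 5.

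RNA outside cells was also examined, because free RNA can place UMIs in cells that do not make them. Barcodes with 1 to 100 UMIs, on average 2.42 in heart and 3.44 in spleen, stood for that RNA. In heart they held Il10 at 43.0 CPM (33.4 to 54.4), Bhlhe40 at 186.1 CPM, Prdm1 at 16.8 CPM and Maf at 277.7 CPM, close to or above the levels in the T cells. In spleen the values were 1.76, 4.91, 1.76 and 120.8 CPM. No cell type in the heart library that should lack these genes was available as a floor: the 88 barcodes with monocyte or macrophage markers, removed before the analysis, held Il10 at 15.5 CPM (11.01 to 21.2), Bhlhe40 at 166.8 CPM, Prdm1 at 29.4 CPM and Maf at 206.1 CPM, at a median of 24632.5 UMIs. At 4000 UMIs, Il10 was found in 6 of 79 of these barcodes (7.59%, 2.84 to 15.8%). The 88 barcodes also held the T cell markers at 3400 CPM, against 6090 CPM in the heart T cells. Their values are therefore not levels of myeloid cells alone. The part of free RNA in the heart shares was not tested.

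Markers of other cells differed in how far they were seen among the kept T cells. Erythroid markers summed to 203.0 CPM in spleen, with 4 of 4 seen and Hbb-bs highest at 125.2 CPM, against 0.071 CPM in heart. The kept spleen cells included 74 of cluster 12, led by the erythroid genes Car1, Car2 and Klf1, where these markers summed to 719.5 CPM. They also summed to 460.7 CPM in cluster 0, with 2756 spleen cells, so leaving out cluster 12 does not remove them. Without cluster 12 the spleen levels were 0.25 CPM for Il10, 2.67 CPM for Bhlhe40, 1.80 CPM for Prdm1 and 147.2 CPM for Maf. Of the endothelial markers, Pecam1, which some T cells also express, read 27.9 CPM in the heart cells against 63.0 CPM in the spleen cells, with Cdh5 and Kdr at 0 in heart. Of 10 monocyte or macrophage markers, 9 had a UMI in each tissue, with Adgre1 at 0 in heart and Fcgr1 at 0 in spleen, and they summed to 5.92 and 2.35 CPM. At 4000 UMIs, 0 of the 270 heart cells with Il10 held a UMI of Lyz2, Csf1r, C1qa, C1qb, C1qc, Adgre1, Fcgr1 or Ms4a7 (exact upper bound 1.36%), against 33 of 3629 without Il10 (0.91%). Without thinning the shares were 2.36% of 467 cells with Il10 (1.18 to 4.18%) and 1.96% of 3519 without (1.53 to 2.48%), with intervals that overlapped. This set of 8 markers left out Cd68 and Apoe. In the thinned cells, Cd68 was at 2.78 CPM in those with Il10 and 2.41 CPM in those without, and Apoe was at 0 in those with Il10. All 270 held a Cd3d, Cd3e or Cd3g UMI. Foxp3, the factor of regulatory T cells, was found in 2 of the 270 (0.74%, 0.090 to 2.65%) and in 26 of the 3629 (0.72%, 0.47 to 1.05%). The list of regulatory T cell markers held Foxp3 and Ikzf2. Their sum was 193.5 CPM in the thinned cells with Il10 and 157.3 CPM in those without, with intervals apart. Most of it was Ikzf2, at 191.7 and 154.9 CPM. Without thinning the sums of this list were 163.3 and 152.3 CPM, with intervals that overlapped. Cycling markers summed to 483.3 CPM in the thinned cells with Il10 and 516.8 CPM in the others. Before thinning the sums were 1454 and 859 CPM, and median depths were 8977 and 8191 UMIs.

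Within the graft, Il10 was not the property of a single cluster. Cells were clustered by expression, so levels between clusters are a description only, and clusters are called by number and leading genes. At equal depth Il10 was found in 6.47% of cells (5.46 to 7.60%) of heart cluster 1, led by Itgae and Cxcr6, in 7.03% (5.35 to 9.03%) of cluster 5, led by Esm1, Gzmk and Gzma, in 7.23% (5.22 to 9.72%) of cluster 6, with the cell cycle genes Rrm2 and Birc5 among its leading genes, and in 9.0% (6.42 to 12.2%) of cluster 8, led by Hspa1b, Hspa1a and Ifng. These 4 intervals overlapped. By level, cluster 8 was higher, at 56.7 CPM (48.5 to 65.9) against 22.9 to 25.5 CPM in the others.

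Bhlhe40 did vary between the graft clusters beyond counting error. It was at 273.5 CPM in cluster 8, 188.8 CPM in cluster 1, 108.7 CPM in cluster 6 and 61.8 CPM in cluster 5, found in 54.5%, 42.9%, 28.8% and 18.3% of cells. Prdm1 was at 35.8 CPM in cluster 8 and between 9.83 and 15.4 CPM in the other 3. Maf had another order, at 317.9 and 309.6 CPM in clusters 5 and 1, which overlapped, 247.3 CPM in cluster 8 and 208.4 CPM in cluster 6.

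In spleen, the clusters highest in Maf were also the highest in Bhlhe40 and Prdm1. Spleen cluster 3, led by Tmem37, Ccl5 and Ccl3, had Maf at 286.3 CPM (274.3 to 298.7) and in 56.4% of cells, near heart cluster 1 (309.6 CPM and 56.9%). The same spleen cluster held Il10 at 1.60 CPM (0.83 to 2.79), Bhlhe40 at 11.2 CPM (8.93 to 13.9) and Prdm1 at 7.73 CPM (5.87 to 9.99), with 12 of the 15 spleen Il10 UMIs. In heart cluster 1 those 3 genes were at 25.5, 188.8 and 15.4 CPM. Spleen cluster 10, led by mitotic genes such as Cenpf, had Maf at 299.0 CPM, Bhlhe40 at 15.3 CPM, Prdm1 at 11.6 CPM and no Il10 UMI in 138 cells. The Prdm1 interval there (7.52 to 17.2 CPM) overlapped that of heart cluster 5 (9.83 CPM, 7.62 to 12.5). Spleen cluster 4, led by Egr2 and Tnf, had Maf at 214.8 CPM with no Il10 and no Prdm1 UMI in 820 cells. In spleen cluster 0, led by Dapl1, with Klf2 among its leading genes, Maf was at 91.8 CPM and the other 3 genes at 0.045 to 0.40 CPM. Spleen clusters 2, 7 and 9 had Maf at 82.2 to 116.5 CPM and Il10 at 0 to 0.25 CPM. Clusters 12 and 13, with 74 and 35 spleen cells, were under the minimum of 100 cells and are not described by gene.

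**Figure D2:**
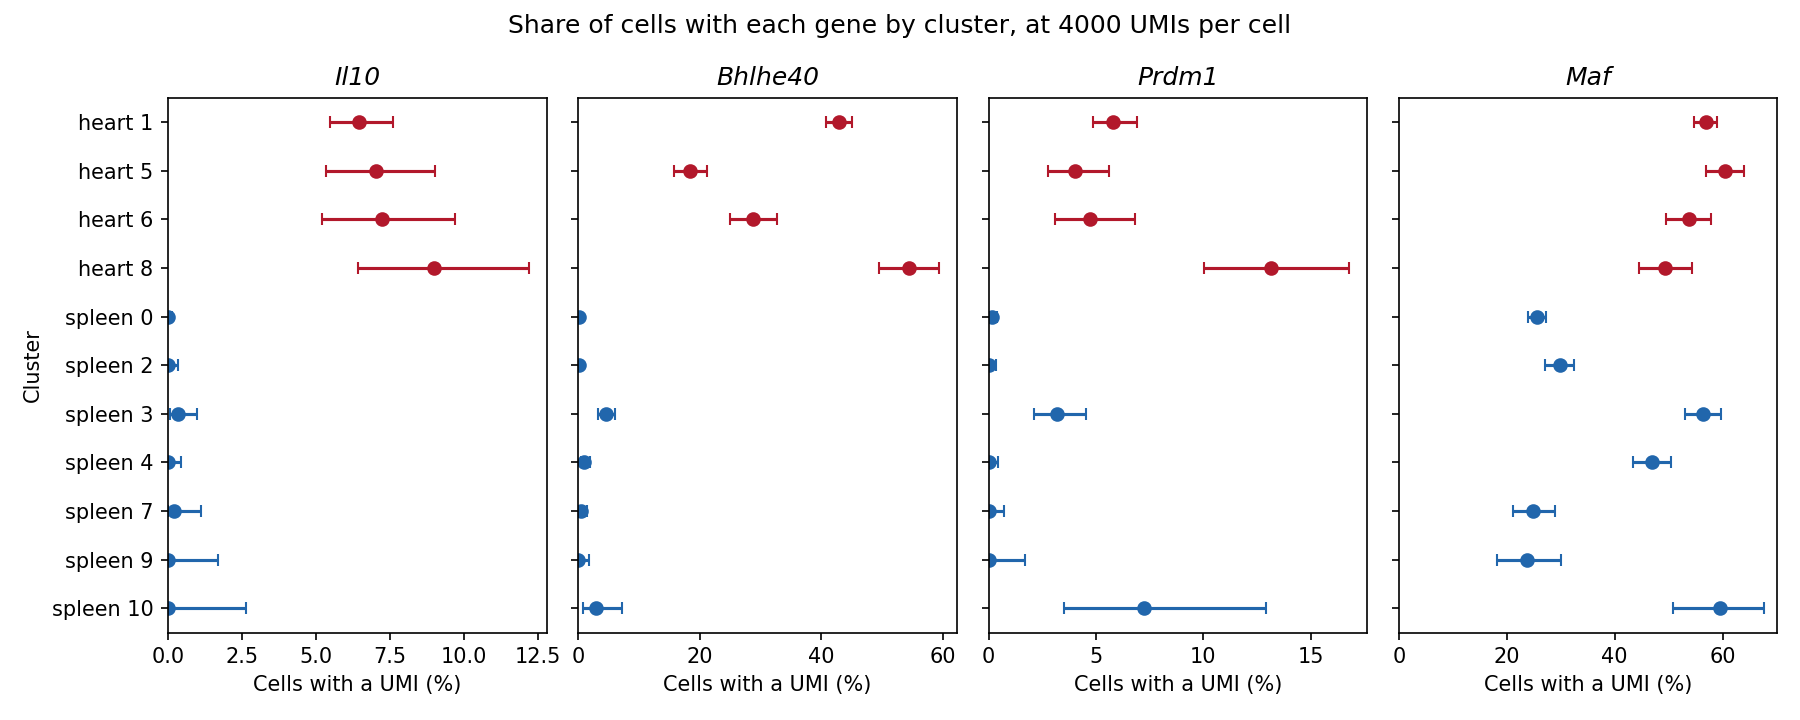
Share of cells (%) with at least 1 UMI of each gene in every cluster of at least 100 cells from a library, at 4000 UMIs per cell, with exact 95% binomial intervals; red points are heart clusters, blue points spleen clusters, and each is marked with its cluster number. Maf is as frequent in spleen cluster 3 (56.4%) as in heart cluster 1 (56.9%), while Il10 is in 0.34% and 6.47% of their cells.

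Over the 11 cluster sums, the genes with profiles closest to Il10 were Nr4a2 (Pearson r = 0.99), Crem (0.98) and Mxd1 (0.98), among 2543 genes that reached 50 CPM in 1 of the libraries. Bhlhe40 was closest to D16Ertd472e (0.99), Ppp2ca (0.98) and Ctsw (0.98), Prdm1 was close to Ifitm3 (0.97) and AU020206 (0.96), and Maf was closest to AI662270 (0.92), Rab1a (0.91) and Cox4i1 (0.91). Among the members themselves, r with Il10 was 0.92 for Bhlhe40, 0.82 for Prdm1 and 0.59 for Maf. The sums share 2 libraries and split mainly by tissue, so these values are a description of that split.

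Cell by cell inside the graft, the order of the regulators was different from their order over clusters. Maf and Prdm1 were found more often, and Bhlhe40 less often, in cells with Il10 than in cells without it. Which of Maf and Prdm1 came first depended on the measure: the co-detection ratio was higher for Prdm1, and the ratio of Il10 shares, added after seeing the data, was higher for Maf. The comparison holds depth equal, not cell state, and the 3 genes were picked with this pattern known.

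Maf was found in 214 of 270 heart cells with Il10 (79.3%, 73.9 to 83.9%) and in 1984 of 3629 without (54.7%, 53.0 to 56.3%), a ratio of 1.45. Read from the other side, Il10 was found in 9.74% of cells with Maf (8.53 to 11.1%) and in 3.29% of cells without (2.50 to 4.25%), a ratio of 2.96. That second measure was added after seeing the data, since a gene found in most cells cannot reach a high ratio on the first. By it, Maf ranked first of 5253 genes found in 5 to 95% of heart cells, of which 2.95% reached a ratio of 1.5, 3.66% lay at or under its inverse, and the median gene was at 1.02.

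The draw of UMIs in the thinning bears on that rank. A second draw gave a ratio of 2.29 and rank 4. The counts expected over all possible draws gave a ratio of 2.78 and rank 1 of 5241 genes, followed by Gzmb (2.70), Ctla4 (2.23), Rgs1 (2.22) and Ccr2 (2.14). Ctla4 was in 93.2% of cells with Il10 and 85.5% without, and Rgs1 in 96.0% and 91.1%. Their co-detection ratios were 1.09 and 1.05, so genes found in most cells can rank high on the Il10 share ratio. Maf ranked 54 of 2180 genes when cells were thinned to 1000 UMIs, where only 92 cells had Il10, 4 of 3657 at 2000 UMIs, 5 of 6743 at 8000 UMIs and 1 of 7289 without thinning. Within single clusters, the rank was 1 in cluster 1, 29 of 5085 in cluster 5 and 347 of 4967 in cluster 8.

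The share of cells with Il10 was higher the more Maf UMIs a cell held. It was 3.29% of 1701 cells with no Maf UMI, 5.89% of 1001 cells with 1 (4.52 to 7.54%), 9.31% of 537 cells with 2 (6.99 to 12.1%) and 15.9% of 660 cells with 3 or more (13.2 to 18.9%). Seen from Il10, Maf was at 287.8 CPM (279.1 to 296.6) in cells with no Il10 UMI, 562.9 CPM (508.6 to 621.3) in 175 cells with 1 and 747.4 CPM (663.0 to 839.5) in 95 cells with 2 or more. None of these 3 intervals overlapped.

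Prdm1 was found in 26 of 270 cells with Il10 (9.63%, 6.39 to 13.8%) and in 211 of 3629 without (5.81%, 5.07 to 6.63%), a ratio of 1.66 with intervals that overlapped. Among 8753 genes found in at least 1% of heart cells, 6.1% reached a ratio of 1.5 and 9.7% lay at or under its inverse. The level of Prdm1 was 16.0 CPM (14.0 to 18.2) in cells with no Il10, 22.9 CPM (13.1 to 37.1) with 1 UMI and 31.6 CPM (16.3 to 55.2) with 2 or more, on 16 and 12 UMIs in the last 2, and these intervals overlapped. Without cells holding the heat shock transcripts Hspa1a or Hspa1b the ratio was 1.22, and it was 1.16 at 1000 UMIs. Both are under 1.5.

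Bhlhe40 was found in 81 of 270 cells with Il10 (30%, 24.6 to 35.9%) and in 1361 of 3629 without (37.5%, 35.9 to 39.1%), a ratio of 0.80. Il10 was found in 5.62% of cells with Bhlhe40 (4.49 to 6.93%) and in 7.69% without (6.67 to 8.82%), a ratio of 0.73 with intervals that overlapped. Its level was 160.5 CPM (154.1 to 167.2) in cells with no Il10 UMI, 122.9 CPM (98.3 to 151.7) with 1 and 121.1 CPM (88.6 to 161.5) with 2 or more. With the counts expected over all draws, the Il10 share ratio was 0.68, at rank 56 from the bottom of 5241 genes, where the drawn cells had put it at 345 from the bottom of 5253.

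**Figure D3:**
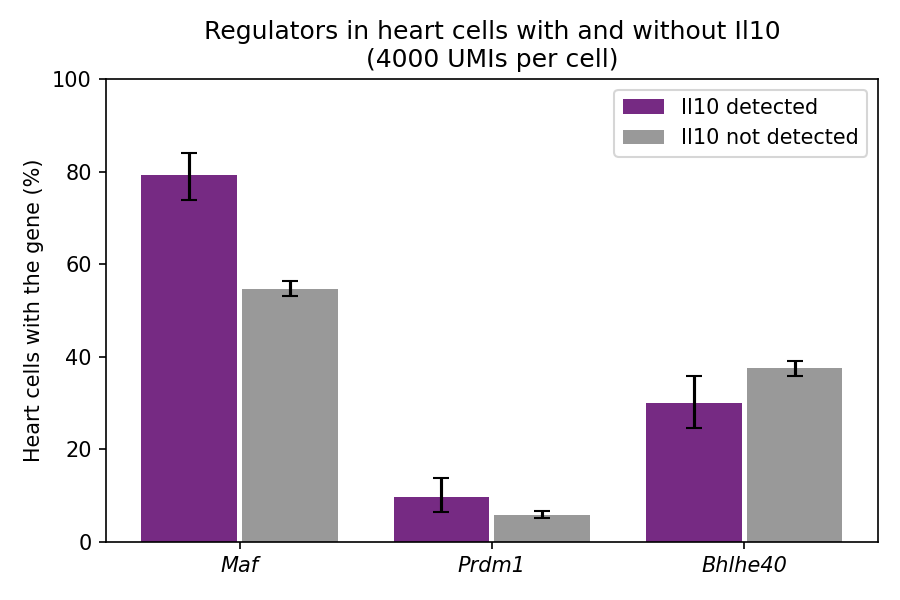
Share of thinned heart cells (%) with Maf, Prdm1 or Bhlhe40 among the 270 cells with Il10 (purple) and the 3629 without (grey), with exact 95% binomial intervals. Maf is at 79.3% and 54.7%, Prdm1 at 9.63% and 5.81%, and Bhlhe40 at 30% and 37.5%.

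By point values, the Maf pattern was seen in each of the 4 graft clusters, and the Bhlhe40 pattern in 3 of 4. Among cells with Il10, Maf was in 84.7%, 80.4%, 72.5% and 64.9% of clusters 1, 5, 6 and 8, and among those without in 55.0%, 59.0%, 52.2% and 47.9%. For Bhlhe40 the pairs were 33.6 and 43.6% in cluster 1, 17.5 and 29.6% in cluster 6 and 45.9 and 55.3% in cluster 8, while cluster 5 was reversed at 19.6 and 18.2%. For Prdm1 they were 8.76 and 5.61%, 5.36 and 3.91%, 7.5 and 4.48%, and 21.6 and 12.3% in clusters 1, 5, 6 and 8. Clusters 1, 5, 6 and 8 held 137, 56, 40 and 37 cells with Il10. The intervals for Maf were apart in clusters 1 and 5 and overlapped in clusters 6 and 8, and those for Prdm1 and Bhlhe40 overlapped in all 4.

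**Figure D4:**
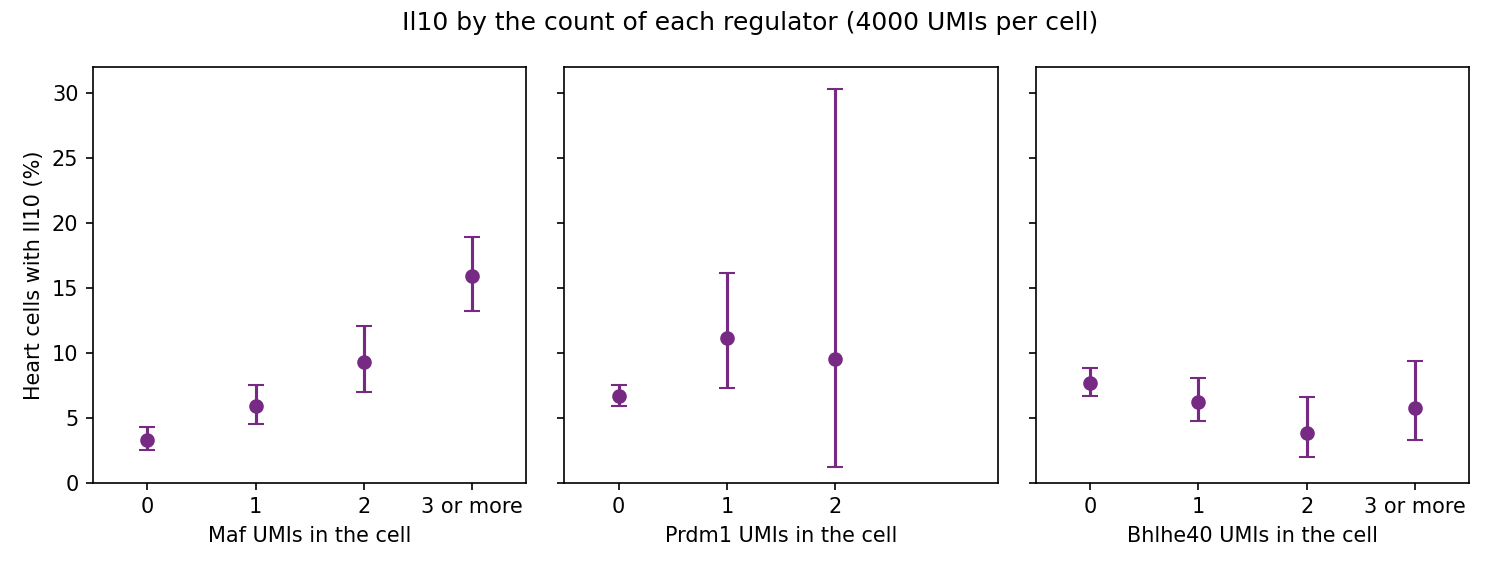
Share of thinned heart cells (%) with Il10 by the number of Maf, Prdm1 or Bhlhe40 UMIs in the cell, with exact 95% binomial intervals; classes under 20 cells are not drawn. The share is 3.29% at no Maf UMI and 15.9% at 3 or more. With Bhlhe40 it is 7.69% at no UMI, 6.23% at 1, 3.81% at 2 and 5.77% at 3 or more. The Bhlhe40 intervals at no UMI (6.67 to 8.82%) and at 3 or more (3.26 to 9.34%) overlap.

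Combinations of the 3 factors gave the highest Il10 share where all were found, on few cells. Il10 was in 3.34% (2.31 to 4.65%) of 989 cells with none of the 3. It was in 3.03% (1.83 to 4.68%) of 628 cells with Bhlhe40 alone and in 10.6% (9.04 to 12.4%) of 1324 cells with Maf alone. With Maf and Bhlhe40 it was 7.07% (5.31 to 9.20%) of 721 cells, lower than with Maf alone by point value, with intervals that overlapped. With Maf and Prdm1 it was 11.6% (5.92 to 19.8%) of 95 cells, and with all 3 it was 19.0% (9.87 to 31.4%) of 58 cells, and both intervals overlapped that of Maf alone. Prdm1 without Maf was rare: 4 of 49 cells with Prdm1 alone had Il10 (8.16%), and 0 of 35 with Prdm1 and Bhlhe40, where the exact interval reaches 10.0%. Cells with Maf and no other factor made up 52.2% of all cells with Il10.

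**Figure D5:**
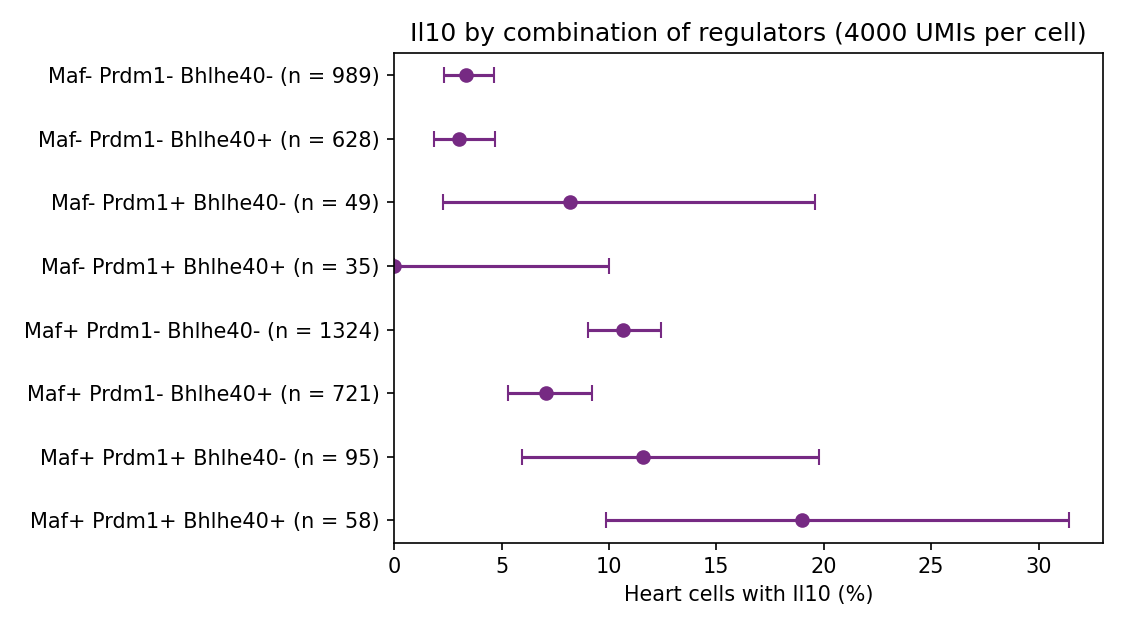
Share of thinned heart cells (%) with Il10 for each combination of Maf, Prdm1 and Bhlhe40 detection (plus, at least 1 UMI; minus, none), with exact 95% binomial intervals and the number of cells. Maf alone is at 10.6% of 1324 cells and all 3 together at 19.0% of 58.

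Among the factors themselves, Maf was found in 64.6% of heart cells with Prdm1 (58.1 to 70.6%) and 55.8% without (54.2 to 57.5%), with intervals apart. Prdm1 was found in 6.96% of cells with Maf (5.93 to 8.11%) and 4.94% without (3.96 to 6.08%), a ratio of 1.41 with intervals that overlapped. Prdm1 was in 6.45% of cells with Bhlhe40 (5.24 to 7.84%) and 5.86% without (4.96 to 6.86%). Maf was found in 54.0% of cells with Bhlhe40 (51.4 to 56.6%) and 57.8% without (55.8 to 59.7%).

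Few spleen cells with Maf had Il10, although the few spleen cells with Il10 mostly had Maf. At equal depth 214 of 2198 heart cells with Maf had Il10, against 4 of 2200 spleen cells with Maf (0.18%, 0.050 to 0.46%) and 1 of 4295 spleen cells without Maf. Of the 58 spleen cells with Bhlhe40 none had Il10 (upper bound 6.16%), and of the 43 with Prdm1 there was 1. Unthinned, 6 of the 7 spleen cells with Il10 had Maf, 1 had Bhlhe40 and 1 had Prdm1.

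Other genes of the pathway were read from lists of textbook members. Maf and Prdm1 are among the activators, Bhlhe40 among the repressors and Il10 among the genes that MAF induces. They were picked with their values known, so nothing is read from the counts, medians or order of the lists that hold them. Among 12 activators of Il10 in CD4 T cells, 10 had at least 10 CPM in either library and 4 of these were at least 2-fold higher in heart, with none lower and a median log2 ratio of 0.85. Over all 6954 genes, here and for each list that follows, 9.13% were at least 2-fold higher, 8.47% were lower and the median was -0.11. Beside Prdm1 these were Nfil3 (36.3 and 0.98 CPM), a leucine zipper factor, Ahr, a ligand-activated receptor (15.3 and 5.10 CPM), and Stat3, which transmits IL-6, IL-21 and IL-27 signals (171.5 and 73.3 CPM). Batf (132.2 and 75.9 CPM) and Nfatc1 (57.1 and 103.9 CPM) lay within 2-fold. In cells with Il10, 2 of the 11 measured activators reached a ratio of 1.5, against 6.1% of all genes. They were Ahr (9.63 and 6.06% of cells, 1.59) and Prdm1, which was chosen with this co-detection known. The Ahr intervals overlapped (6.39 to 13.8% and 5.31 to 6.89%), and without thinning its ratio was 1.34. In the thinned cells Nfil3 was at 1.17, Batf at 0.95 and Stat3 at 0.91.

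Of 5 repressors, Bhlhe40 and Runx3 (229.3 and 65.4 CPM) were at least 2-fold higher and Bach2, a factor of quiescent T cells, at least 2-fold lower (11.8 and 26.3 CPM), with a list median of 0.69. Bhlhe40, which was chosen with this co-detection known, had the lowest co-detection ratio with Il10 of the 5. It was followed by Bcl6 at 0.89, Ets1 at 1.02, Runx3 at 1.09 and Bach2 at 1.27. Among 8 factors of the same families, 3 were at the floor and Mafg was at least 2-fold higher (60.9 and 17.4 CPM), with a list median of 0.29. Bhlhe41 was at 0.024 CPM in heart and 0 in spleen.

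The receptor side was mixed. Of 7 genes of IL-10 reception and signalling, Stat3, Bcl3 (45.3 and 13.3 CPM) and Socs3, a feedback inhibitor of STAT3 (123.1 and 45.5 CPM), were at least 2-fold higher in heart, and Il10ra, the ligand-binding receptor chain, was at least 2-fold lower (10.0 and 24.4 CPM). The list median was -0.20. Il10rb, the shared second chain, was at 36.5 and 41.9 CPM.

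Receptors for signals known to induce Il10 had 9 of 9 genes at the floor, with 3 at least 2-fold higher, 2 lower and a median of -0.24. The higher ones were Il12rb2 (28.9 and 1.72 CPM), the costimulator Icos (957.2 and 160.4 CPM) and Il21r (139.6 and 60.1 CPM). The lower ones were the IL-6 receptor chains Il6st (11.2 and 78.8 CPM) and Il6ra (12.7 and 77.7 CPM). Il6st was nevertheless found more often in graft cells with Il10, in 7.78% against 3.94% (ratio 1.97), and was the only gene of this list to reach 1.5. The IL-27 receptor Il27ra was at 47.9 and 80.4 CPM and in 20.4% and 17.5% of cells with and without Il10.

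Markers linked to type 1 regulatory cells were higher in heart for 6 of 7 genes at the floor (all genes, 9.13%), with a median of 2.66, and most are also genes of activated T cells. Ctla4 was at 781.8 and 28.6 CPM and Havcr2 at 10.9 and 0.46 CPM. Itga2 (CD49b), which with Lag3 defines these cells by surface stain, was at 1.63 and 1.56 CPM, so that only Lag3 of the pair was well measured (75.4 and 35.4 CPM). Of the 8 markers found in at least 1% of heart cells, 3 reached 1.5 (all genes, 6.1%), among them Gzmb (43.7 and 23.6% of cells with and without Il10, ratio 1.85) and Tigit (6.30 and 3.33%, 1.89). Tigit was in 17 of the 270 cells with Il10, and its intervals overlapped (3.71 to 9.89% and 2.77 to 3.97%). Lag3 was at 1.44 (31.1 and 21.6%) and Cd226, which competes with TIGIT for ligand, was lower at 0.45 (5.56 and 12.3%). Pdcd1 was at 0.83 and Havcr2 at 0.84.

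Genes that PRDM1 is known to repress were lower in heart for 4 of 6 (all genes, 8.47%), with a median of -2.0. Among them were Tcf7 (77.9 and 439.4 CPM), Id3 (6.20 and 401.4 CPM) and Il2 (6.18 and 19.6 CPM). Ccr7 lay within 2-fold (68.7 and 108.9 CPM), and Bcl6 went the other way, at 18.1 and 10.8 CPM. In graft cells with Il10, Tcf7 was found in 13.3% against 22.8% (ratio 0.58), Il2 in 0.74% against 2.65% and Id3 in 1.11% against 2.23%. Of 5 genes that MAF is known to induce, which include Il10 itself, 3 were at the floor with a median of 2.57. Icos was higher and Cxcr5 lower in heart (3.64 and 35.6 CPM), and Il21 was at 4.64 and 7.08 CPM.

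Of 7 cytokines made beside Il10, 3 were at the floor, with a median of -0.67. Ifng was at least 2-fold higher (94.3 and 16.0 CPM), Il2 lower, and Tnf was at 11.2 and 18.5 CPM. Ifng was found in 54 of the 270 cells with Il10 (20%) and in 17.8% of the others (ratio 1.12), or in 36.8% and 28.5% without thinning. Il4 and Il17a were each in 2 of the 270 cells with Il10, and in 8 and 5 of the 3629 others, ratios of 3.36 and 5.38 with intervals that overlapped. Without thinning, Il4 was in 1.71% and 0.34% of cells and Il17a in 0.64% and 0.14%. Csf2, which BHLHE40 is known to favour, was at 0.59 and 0.089 CPM, and Il17a at 3.12 CPM in heart and 0 in spleen, in 0.20% of unthinned heart cells. The IL-10 family members Il20, Il22 and Il24 had no UMI in either library and Il19 was at 0.095 and 0.036 CPM. Of 9 genes beside Il10 in the genome, 8 were found by name and 3 were at the floor, with a median of -0.39. Mapkapk2 was higher in heart (84.6 and 33.6 CPM), Rassf5 was at 61.7 and 115.4 CPM and Eif2d at 22.9 and 30.2 CPM, and their co-detection ratios with Il10 were 1.15, 0.92 and 0.87.

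The 10 genes with the highest co-detection ratio, among 5402 genes found in at least 5% of heart cells, were Ttyh3, Fos, Tfrc, Ccr2, Tmem163, Gzmb, Lysmd3, Med20, Pik3c2a and Ralgapa2, with ratios from 2.03 to 1.81. Prdm1 stood at rank 37 in this order, Maf at 143 and Bhlhe40 at 4842. Of the 10, Ccr2, a chemokine receptor of inflamed tissue (30.7 and 16.3% of cells), and Gzmb rested on 83 and 118 cells with Il10, and the other 8 on 24 to 44.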

How the data were processed

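Single-cell 3' RNA libraries were made from sorted TEa cells with droplet chemistry, per the labels' protocols. The protocol also speaks of a nuclei suspension. The authors deposited raw counts of UMIs, unscaled, for every gene and droplet barcode. Cell Ranger 3.0.2 is named in the 2 wild-type file headers, per the file headers, whereas Cell Ranger 7.0.0, Seurat 4.0.0 and mm10 are given by the submitters' processing notes. Use of intronic reads is not given in the sources used here. Barcodes with at least 1000 UMIs, 500 genes and at most 10% mitochondrial UMIs were kept, clustered jointly (2000 variable genes, 30 components, 15 neighbours, Leiden resolution 0.6; scanpy 1.11.5, leidenalg 0.10.2), and the cluster that carried myeloid markers was taken out. No doublet caller was used. Counts were summed per library as CPM, with a pseudocount of 1 for log2 ratios, and cells were thinned to 4000 UMIs by a seeded draw for shares. Intervals are exact Poisson (levels), conditional binomial (ratios) and Clopper-Pearson (shares). The functions were tested on simulated data. Genes named are the 4 members, up to 6 of each list by size of the ratio and any counted out, the 10 highest by co-detection with Il10, and the 3 nearest each member over clusters; list genes under 10 CPM and the genes ranked beside Maf were named after their values were seen. The members and lists were chosen with earlier results of these data known. Sequences and start windows are from RefSeq (GRCm38.p6; 1 of the 4 genes matched) and gene positions from GENCODE M21. Some genes that the naming rule selects are not reported here.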

Additional observations from a re-analysis of the deposited data

How the results depend on the processing

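With 1 library in each group, no result could be checked by leaving out a replicate. No paired analysis was possible because each group held 1 library. Every log2 ratio between tissues stayed positive under the 11 alternatives run. With a pseudocount of 0.1 the ratios were 6.20 for Il10, 5.60 for Bhlhe40 and 3.00 for Prdm1. With totals without mitochondrial, ribosomal protein and Malat1 counts Il10 was at 4.84 and Maf at 0.73. With those totals 612 genes were higher and 1216 lower in heart (33.5% higher), against 635 and 589 (51.9%). With mean per-cell CPM Bhlhe40 was at 5.54 and Maf at 1.11, and at 1000 UMIs per cell they were at 5.91 and 1.20. Leaving out the deepest cells, those over 3 times their library's median depth (202 heart and 25 spleen cells), put Maf at 0.98. At most 5% mitochondrial UMIs gave 4.93 for Bhlhe40 and 2.24 for Prdm1. Without cycling clusters, an alternative chosen after seeing the data, Bhlhe40 was at 5.74, Prdm1 at 2.85 and Maf at 1.11. The count of genes at least 2-fold higher was 317 with a floor of 50 CPM and 915 with no floor.

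The co-detection ratio of Maf with Il10 was 1.61 at 1000 UMIs, 1.60 at 2000, 1.26 at 8000, 1.27 unthinned and 1.54 in heart cluster 1 alone. The Il10 share ratio for Maf was 1.94 at 1000 UMIs, 2.39 at 2000, 2.41 at 8000, 3.8 unthinned, 2.29 in another draw, 3.38 without cycling cells, 4.18 in cluster 1 alone and 1.89 in cluster 8 alone. For Bhlhe40, the co-detection ratio was 0.41 at 1000 UMIs and reversed to 1.08 in cluster 5 alone, and the Il10 share ratio was 0.38 at 1000 UMIs, 0.51 at 8000 and reversed to 1.09 in cluster 5 alone. The Prdm1 co-detection ratio ranged from 1.16 to 1.95 over 14 alternatives, under 1.5 at 1000 UMIs, without heat shock cells and in cluster 5 alone. Genes at a co-detection ratio of at least 1.5 numbered 534, or 101 among genes in at least 5% of cells and 1178 unthinned. The single-cluster alternatives, the one without heat shock cells and the expected counts were chosen after seeing the data, and the cause of each shift was not tested.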
